A study of Mus musculus with 6 samples.

Results

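The genes described here are 10 transcription factor genes of the neural crest and of melanoblasts, the migrating precursors of melanocytes: Pax3, Tfap2a, Tfap2b, Snai1, Snai2, Zeb1, Zeb2, Twist1, Tcf4 and Foxd3. They were taken by symbol from 19938 named genes on the array, each gene through the probe set with the highest mean over all arrays. All 10 were found, each with 1 probe set, and no filter on level was applied. The samples were cultures of Melan-Ink4a, an immortal melanocyte line from C57BL/6J mouse skin labelled Ink4a-ARF1 null, for a tumour suppressor locus. In the NRG1 group (3 arrays) the cells had received 10 nM NRG1-b1, the EGF-like growth factor neuregulin 1 that binds ERBB3, for 21 days. In the untreated group (3 arrays) they had received none, and the labels give no matching time in culture. Both groups share the genotype and the medium, which held 200 nM TPA (a phorbol ester) and 200 pM cholera toxin, and the cells were harvested at 90% confluence. A single cell line stands for melanocytes here. Nothing in the labels tells whether arrays of a group are separate cultures, and the p-values therefore reflect the spread between arrays only, which may be technical. Levels are deposited log2 values from Affymetrix Mouse Gene 1.0 ST arrays, and changes are NRG1 minus untreated on that scale.

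Melanocytes descend from neural crest cells, which leave the neural tube after an epithelial-mesenchymal transition and migrate through the embryo. PAX3, AP-2 and FOXD3 proteins help to specify these cells and to choose among their fates, whereas SNAIL, ZEB and TWIST proteins repress epithelial genes such as that for E-cadherin and permit migration. In melanocytes PAX3 acts with SOX10 on the promoter of Mitf, the main regulator of pigment genes, and the basic helix-loop-helix protein TCF4 pairs with other such factors on E-box DNA.

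Marker genes of the labelled cell type and of other cell types were read on the same arrays. Levels of different probe sets depend on the probes, so that their order does not rank amounts of RNA. Mean levels of the 10 melanocyte markers, averaged per array, lay between 11.74 and 11.78 with NRG1 and between 12.24 and 12.26 in untreated cells, and 9 of the 10 fell (limma, adjusted p under 0.05). Of 8 fibroblast markers, 1 rose and 0 fell, and before adjustment 1 was higher and 1 lower at p under 0.05 (limma). Their averages were 6.71 to 6.86 with NRG1 and 6.62 to 6.81 untreated. None of 10 keratinocyte markers was called by limma (1, lower with NRG1, had an unadjusted p under 0.05). Their averages were 6.29 to 6.34 with NRG1 and 6.30 to 6.46 untreated. Of 8 measured Schwann cell markers 2 rose and 0 fell, and before adjustment 2 were higher and 2 lower at p under 0.05 (limma). The averages of this list were 7.71 to 7.82 with NRG1 and 7.61 to 7.78 untreated. Over all genes, limma called 12.3% higher and 8.56% lower with NRG1. The highest means over the 6 arrays were 11.07 for Pmp22 and 10.43 for Cdh19 among Schwann cell markers, and 8.62 for Col1a1 among fibroblast markers. Below the median level of all genes (7.17) lay 5 of 8 Schwann cell, 5 of 8 fibroblast and 9 of 10 keratinocyte markers. The median of all tested genes lay between 7.11 and 7.19 per array, though a level above it may reflect the probes. No marker is listed at 0, since array values have no true zero, and the part of other cell types in the changes was not tested. In a culture, fewer cells of a type and less RNA per cell cannot be told apart.

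Of the 10 genes, 4 fell with NRG1 (Pax3, Tfap2a, Tfap2b and Snai2), 1 rose (Tcf4) and 5 were not called (Snai1, Zeb1, Zeb2, Twist1 and Foxd3). A call means an adjusted p under 0.05 over all 19938 genes in limma, a linear model with variances shared across genes, and 20.9% of all genes were called, 12.3% higher and 8.56% lower with NRG1. The share of calls that were higher, 59.0%, was 48.5% after quantile normalization of the tested genes alone, which called 1 of the 10 higher and 5 lower. Before adjustment, 6 of the 10 and 32.0% of all genes had p under 0.05. The 3 NRG1 values and the 3 untreated values did not overlap for 6 of the 10 genes, against 36.7% of all genes. The median change of the 10 was -0.15, beside -0.029 over all genes, and their median absolute change was 0.21, beside 0.10. Of the 10, only Tfap2b was called with a change of at least 2-fold, beside 384 of all 19938 genes. The count of 5 called genes became 3 without NRG1 replicate 1 and 3 without untreated replicate 1, in both cases through the loss of Tfap2a and Snai2. When limma treat required more than a 1.2-fold change, Pax3 and Tfap2b passed, 2 of the 10, beside 6.14% of all genes.

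**Figure D1:**
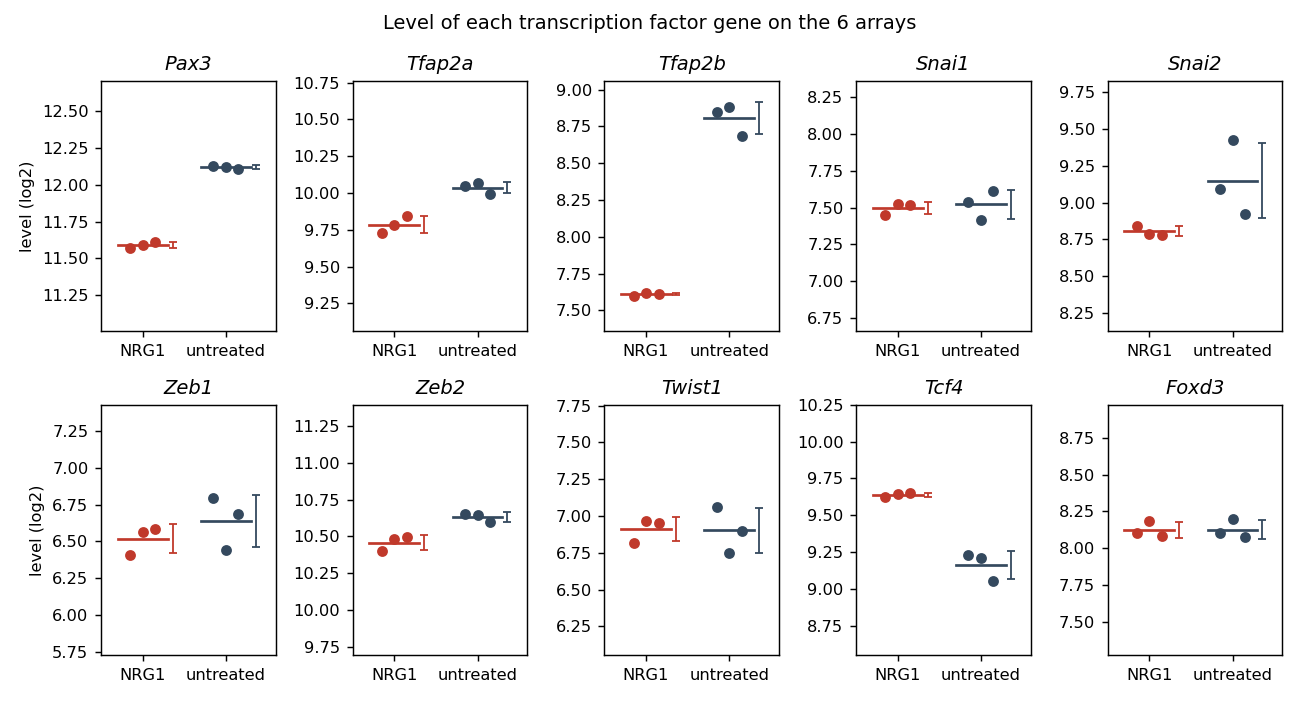
Levels (log2, vertical axes, all panels spanning the same range) of the 10 genes on the 3 NRG1 arrays and the 3 untreated arrays. Points are arrays, horizontal lines are group means and bars beside them are the SD (n = 3 each). The groups lie apart for Pax3, Tfap2a, Tfap2b, Snai2, Zeb2 and Tcf4, and the untreated Snai2 values are spread between 8.92 and 9.42.

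Pax3 encodes a paired-box and homeodomain protein that keeps melanoblasts and melanocyte stem cells in their lineage. Its level was 11.57, 11.59 and 11.61 on the NRG1 arrays, against 12.13, 12.12 and 12.11 on the untreated arrays. The arrays of each group lay close together and the groups were separated by 0.50 at their nearest values. Pax3 fell by 0.53 ± 0.056 (SE) on the log2 scale, which is 1.44-fold (limma, adjusted p = 7.18e-05), with a 95% interval of -0.65 to -0.41. All 17 alternative settings called the fall, with changes between -0.59 and -0.52, among them the 6 fits that left out a single array.

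The AP-2 genes moved in the same direction by unequal amounts. AP-2 alpha and AP-2 beta are related transcription factors that bind DNA as dimers, and AP-2 alpha is known to act with MITF on genes of melanocyte differentiation. Tfap2b stood at 7.60, 7.62 and 7.61 with NRG1, against 8.85, 8.88 and 8.69 in untreated cells. The NRG1 values were nearly identical, with an SD of 0.0087, while the untreated values had an SD of 0.11, and 1.07 separated the groups at their nearest values. Tfap2b fell 2.29-fold, a change of -1.196 ± 0.067 (SE; limma, adjusted p = 8.41e-07), which ranked 259 of 19938 genes by absolute size. Tfap2a stood at 9.73, 9.78 and 9.84 with NRG1, against 10.05, 10.07 and 10.00 untreated, so that the groups lay apart by 0.15. The fall of Tfap2a was 1.19-fold, a change of -0.25 ± 0.060 (SE; limma, adjusted p = 0.0136). Its call ended without NRG1 replicate 1 (limma, adjusted p = 0.0618), without untreated replicate 1 (limma, adjusted p = 0.0546) and when more than a 1.2-fold change was required, with adjusted p from 0.00113 to 1 over 17 settings. The log2 difference Tfap2a minus Tfap2b was 2.13, 2.16 and 2.23 on the NRG1 arrays, against 1.199, 1.181 and 1.311 on the untreated arrays. These values did not overlap, and the fall of Tfap2a was the smaller, with a difference between the changes (Tfap2a minus Tfap2b) of 0.95 (exact permutation test, 2-sided, p = 0.1, the smallest that 3 arrays against 3 allow, and 0.267 adjusted over the 4 gene pairs compared). Tfap2c, Tfap2d and Tfap2e, the other genes of the family, had changes of -0.056, -0.046 and -0.028 and none was called. Tfap2c and Tfap2d averaged 5.57 and 5.10, below the lower quartile of all genes (5.96), where signals can be near background, and Tfap2e averaged 7.30.

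The promoters of both AP-2 genes are shown because their transcripts fell together. The sequences are the 250 bases before the start sites in RefSeq (GRCm38.p6), read 5′ to 3′ on the strand of the gene, and capitals mark E-boxes (CANNTG) and AP-2 motifs (GCCNNNGGC). The Tfap2b window is chr1:19211804-19212053 on the plus strand, and the Tfap2a windows, for its separate start sites, are chr13:40734921-40735170 and chr13:40733796-40734045 on the minus strand.
Tfap2b: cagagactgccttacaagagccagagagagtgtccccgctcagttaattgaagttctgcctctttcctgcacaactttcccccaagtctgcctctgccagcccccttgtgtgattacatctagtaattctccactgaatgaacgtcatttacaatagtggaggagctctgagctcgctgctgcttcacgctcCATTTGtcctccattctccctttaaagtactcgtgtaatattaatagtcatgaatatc
Tfap2a, upstream start: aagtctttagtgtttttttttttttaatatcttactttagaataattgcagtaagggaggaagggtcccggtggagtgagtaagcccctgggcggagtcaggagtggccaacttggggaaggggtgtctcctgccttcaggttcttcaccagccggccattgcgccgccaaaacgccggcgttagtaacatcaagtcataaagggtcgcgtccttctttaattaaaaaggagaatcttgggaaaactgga
Tfap2a, downstream start: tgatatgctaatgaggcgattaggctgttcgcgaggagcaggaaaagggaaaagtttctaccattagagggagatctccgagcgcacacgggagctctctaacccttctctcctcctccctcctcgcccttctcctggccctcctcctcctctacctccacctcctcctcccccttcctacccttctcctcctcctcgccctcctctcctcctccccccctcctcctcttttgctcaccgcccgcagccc
Both strands were searched. The Tfap2b window held 1 E-box, beginning at position -58 from the start site, and the 2 Tfap2a windows held 0. None of these 3 windows held the AP-2 motif, which is present in 13.7% of all 32851 promoter windows of this length in the RefSeq table, whereas any E-box is present in 66.2%. The letters describe these windows and do not show binding.

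SNAIL proteins are zinc finger repressors, and SNAI2 (SLUG) is needed for melanoblast development in the mouse. Snai2 had levels of 8.84, 8.79 and 8.78 with NRG1, against 9.09, 9.42 and 8.92 in untreated cells. The groups lay apart by 0.082, and untreated replicate 2 was the highest array. Snai2 fell by 0.34 ± 0.11 (SE) on the log2 scale, 1.27-fold, close to the threshold (limma, adjusted p = 0.0494, and 0.0106 to 1 over 17 settings). The call was lost in 5 of the 6 fits that left out an array and held only without untreated replicate 3. Without untreated replicate 2 the change was -0.20 (limma, adjusted p = 0.073). Snai1, the founding member of the family and a repressor of the E-cadherin gene, was at 7.45, 7.53 and 7.52 with NRG1 and at 7.54, 7.42 and 7.61 untreated. These values overlapped, and the difference of -0.025 had a 95% interval of -0.18 to 0.13 (limma, adjusted p = 0.849). The change of Snai1 minus that of Snai2 was 0.32, with overlapping groups (exact permutation test, 2-sided, p = 0.2, and 0.267 adjusted over 4 pairs), and it was 0.13 without untreated replicate 2.

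The Snai1 promoter is printed because it is the only one of the windows used here with a match to CACCTG, the form of the E-box that SNAIL and ZEB proteins prefer. Its window is chr2:167537945-167538194 (GRCm38.p6, plus strand, the 250 bases before the start site), with the E-box and an AP-2 motif in capitals.
Snai1: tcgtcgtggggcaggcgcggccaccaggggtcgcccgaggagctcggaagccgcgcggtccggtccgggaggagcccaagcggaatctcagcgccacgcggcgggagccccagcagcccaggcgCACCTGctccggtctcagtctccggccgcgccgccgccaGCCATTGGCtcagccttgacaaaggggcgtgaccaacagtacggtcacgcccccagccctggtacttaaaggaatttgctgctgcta
The E-box CACCTG began at position -126 and the AP-2 motif at -87. CACCTG, on either strand, is present in 17.2% of the 32851 windows, and each such match is also a match to CANNTG. The promoter table used here was matched for 6 of the 10 genes, and windows of Pax3, Snai2, Zeb1 and Tcf4 were not used here.

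ZEB1 and ZEB2 are zinc finger and homeodomain repressors of epithelial genes, and ZEB2 is required for melanocyte differentiation in the mouse. Zeb2 was at 10.40, 10.48 and 10.50 with NRG1, against 10.65, 10.64 and 10.60 in untreated cells. Every NRG1 value lay below every untreated value, by 0.10 at the nearest. The difference of -0.17 ± 0.059 (SE), with a 95% interval of -0.31 to -0.042, was not called (limma, adjusted p = 0.0657). Of 17 alternative settings 6 called it lower, among them quantile normalization (-0.21; limma, adjusted p = 0.0303, with 0.0106 to 1 as the range over settings). Zeb1 was at 6.41, 6.56 and 6.59 with NRG1 and at 6.79, 6.44 and 6.68 untreated, with overlapping groups. Its difference of -0.12 had a 95% interval of -0.33 to 0.085 and was not called (limma, adjusted p = 0.421). Zeb1 and Twist1 were the 2 of these genes below the median level of all genes (7.17). Both lay above the lower quartile (5.96), and whether their level understates differences was not tested. The changes of Zeb1 and Zeb2 differed by 0.052 (Zeb1 minus Zeb2; exact permutation test, 2-sided, p = 0.9, also after adjustment over 4 pairs), and by -0.053 without untreated replicate 2.

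Twist1 encodes a basic helix-loop-helix factor of mesenchyme and cranial neural crest. It was at 6.82, 6.96 and 6.95 with NRG1 and at 7.06, 6.75 and 6.90 in untreated cells, and the groups overlapped widely. The difference was 0.0066, with a 95% interval of -0.18 to 0.19 (limma, adjusted p = 0.969). The change of Twist1 minus that of Snai2 was 0.35 (exact permutation test, 2-sided, p = 0.2, and 0.267 adjusted over 4 pairs), and 0.14 without untreated replicate 2. Foxd3 encodes a forkhead repressor of early neural crest that in the chick holds back the melanocyte fate. It was at 8.10, 8.18 and 8.08 with NRG1 and at 8.10, 8.20 and 8.07 untreated. The difference of -0.0030, with a 95% interval of -0.14 to 0.14, was not called (limma, adjusted p = 0.983). The intervals for Snai1, Twist1 and Foxd3 together reach from -0.18 to 0.19 on the log2 scale, and changes of that size in these genes are not excluded.

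**Figure D2:**
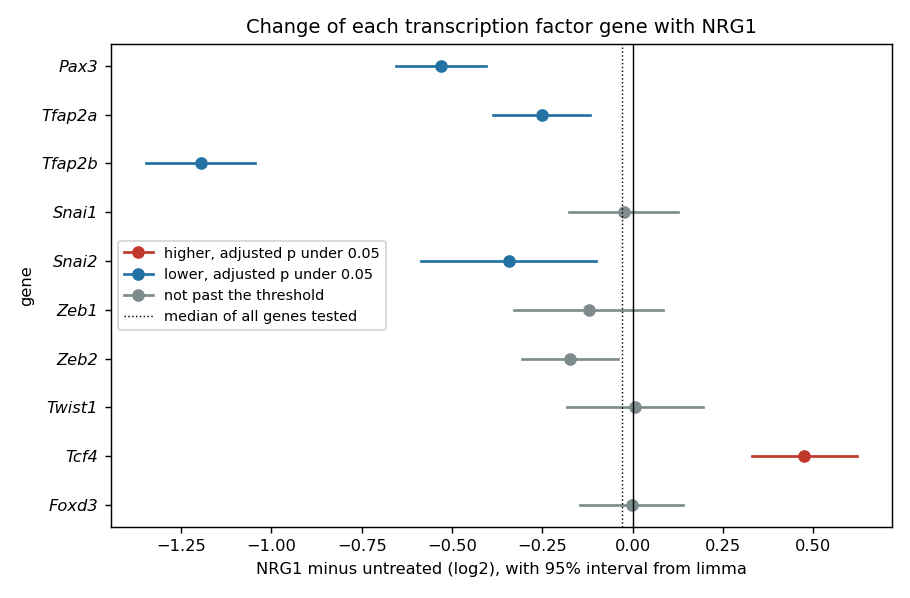
Change of each gene (horizontal axis, NRG1 minus untreated, log2) with its 95% interval from limma. Points in blue and red passed the threshold, points in grey did not, and the dotted line is the median of all genes tested (-0.029). Tfap2b, at -1.196, lies furthest from 0, and Tcf4, at 0.48, is the only gene called higher.

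Tcf4 was the gene that rose. It encodes the E protein TCF4 (E2-2), not the Wnt effector that shares this name as an alias, and in human melanoma it has been tied to a mesenchymal-like state of the tumour cells. It stood at 9.62, 9.64 and 9.65 with NRG1, against 9.23, 9.21 and 9.05 in untreated cells. The groups lay apart by 0.39, and untreated replicate 3 was the lowest array. Tcf4 rose by 0.48 ± 0.065 (SE) on the log2 scale, 1.39-fold (limma, adjusted p = 0.000455), and 16 of 17 settings called it, the exception being limma treat at 1.2-fold (adjusted p = 0.0683, the highest of a range that began at 6.78e-06). The isoforms covered by its probe set are not stated.

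The other E-protein genes rose with Tcf4 and a pair of genes for their inhibitors fell. ID proteins lack a DNA-binding region and hold E proteins in inactive dimers. Tcf12 (HEB) rose by 0.33 ± 0.065 (SE; limma, adjusted p = 0.00481) and Tcf3 (E2A) by 0.21 ± 0.063 (limma, adjusted p = 0.0399). The Tcf3 call was lost in 11 of 17 settings, including every fit without a single array except that without NRG1 replicate 3 (limma, adjusted p from 0.01 to 1). Id2 averaged 9.63 ± 0.10 with NRG1 and 11.04 ± 0.054 in untreated cells (SD, n = 3 each), a change of -1.40 or 2.64-fold lower (limma, adjusted p = 3.57e-07). Id3 averaged 7.88 ± 0.14 with NRG1 and 8.57 ± 0.055 untreated (SD, n = 3 each), a change of -0.69 (limma, adjusted p = 0.000108). For Id2 and Id3 all 17 settings called the fall. Id1 and Id4 had changes of 0.18 and 0.21 and were not called (limma, adjusted p = 0.207 for Id1 and 0.165 for Id4). Of these 6 listed genes 2 rose and 2 fell, with a median change of 0.19.

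**Figure D3:**
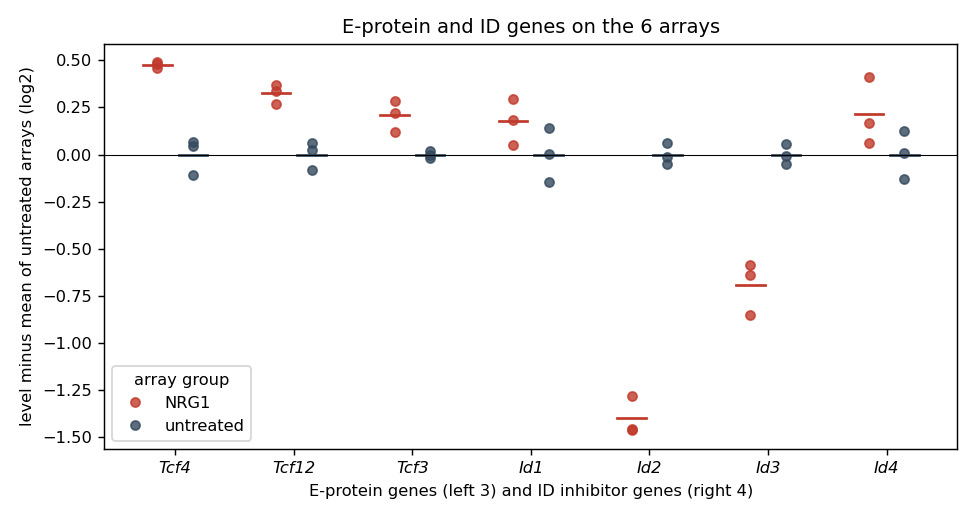
Levels of 3 E-protein genes and 4 ID genes on the 6 arrays (vertical axis, log2, relative to the mean of the untreated arrays of the same gene). Points are arrays and lines are group means. The NRG1 arrays lie above the untreated arrays for Tcf4, Tcf12 and Tcf3, and below them for Id2 and Id3, and the groups overlap for Id1 and Id4.

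Other genes linked to these factors were read from 9 lists, which name 121 distinct genes outside the 10. Of the 117 measured, 21 rose and 16 fell, against backgrounds of 12.3% and 8.56% of all genes. Among 11 relatives from the families of the 10 genes, Tcf12 and Tcf3 rose and 0 fell. Of 7 cofactors and inhibitors of AP-2, 1 fell: Cited2, a coactivator that AP-2 proteins recruit, which fell by 0.58 (limma, adjusted p = 4.71e-05). Of 28 measured other factors of the neural crest, 3 rose and 2 fell, with a median change of -0.032. The nuclear receptor gene Nr2f2 fell by 0.82 and the homeobox gene Alx1 fell by 0.60. The rises were those of Nr2f1, another nuclear receptor gene, by 0.50, of the LIM-only gene Lmo4 by 0.50 and of Sox6 by 0.19 (limma, adjusted p = 0.0499). The Sox6 call was lost in 11 of 17 settings, among them all fits without a single array other than untreated replicate 2 (limma, adjusted p from 0.00803 to 1).

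The partners of SNAIL and ZEB were read beside the epithelial genes that these repressors act on. Of 15 genes for corepressors and for turnover of these proteins, 4 rose and 1 fell, with a median change of 0.082. The histone deacetylase genes Hdac2 and Hdac1 rose by 0.44 and 0.42 and Limd1, which encodes a LIM protein that binds SNAIL, by 0.37, while Fbxl5, which encodes part of a ubiquitin ligase, fell by 0.35. Of 9 epithelial factors that oppose ZEB and SNAIL, limma called 0 (2 had an unadjusted p under 0.05), all 9 lay below the median level of all genes, and the smallest p was that of Grhl3 (-0.14; limma, adjusted p = 0.133). Of 18 epithelial genes that SNAIL and ZEB repress, 0 rose and 1 fell, with a median change of -0.074, and 13 lay below the median level. The fall was that of Cdh1, the E-cadherin gene, at 6.72 ± 0.093 with NRG1 and 7.17 ± 0.076 untreated (SD, n = 3 each), a change of -0.45 (limma, adjusted p = 0.00114). Of 12 measured mesenchymal genes, 8 rose and 1 fell, with a median change of 0.39, among them the matrix genes Fn1 (2.38), Tnc (2.05) and Postn (1.88). The untreated means of Tnc and Postn, 5.82 and 6.01, were close to the lower quartile of the levels of all genes (5.96), where signals can be near background, so that the sizes of these rises are uncertain and may be understated. Vim, the vimentin gene, fell by 0.28, while after quantile normalization of the tested genes alone its change was -0.10 and not called (limma, adjusted p = 0.174, with 5.60e-06 to 1 over 17 settings).

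Among 14 measured pigment cell genes that these factors bind or that act beside them, 8 fell and 4 rose, with a median change of -0.25. The receptor genes Kit and Ednrb fell by 1.36 and 1.17 and the melanosomal gene Mlana by 1.09. The rises led with the growth factor gene Tgfb2 (1.19), the adhesion gene Mcam, which AP-2 alpha represses in human melanoma lines (1.10), and the survival gene Bcl2l1 (0.44). The untreated mean of Tgfb2, 6.33, lay below the median level of all genes (7.17), and whether this affects the size of its rise was not tested. Mitf was at 11.14 ± 0.018 with NRG1 and 11.67 ± 0.036 untreated (SD, n = 3 each), a change of -0.53. Sox10, the 1 melanocyte marker not called, changed by 0.056 (limma, adjusted p = 0.565), with NRG1 values above the untreated values.

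**Figure D4:**
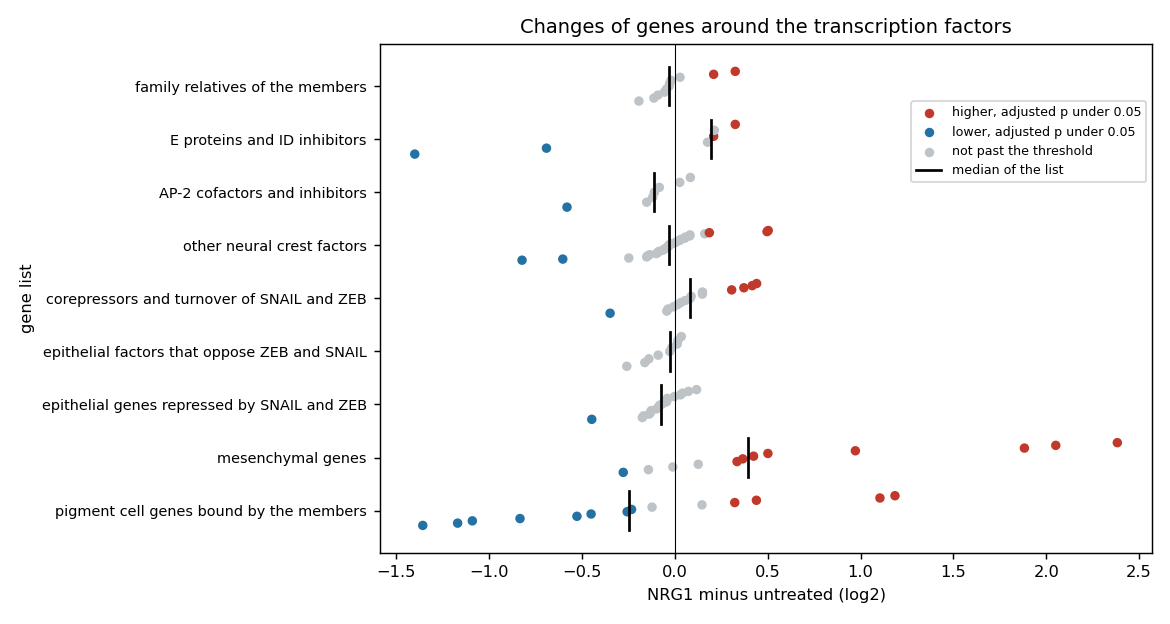
Changes (horizontal axis, NRG1 minus untreated, log2) of the genes in the 9 lists. Each point is a gene, in red or blue where limma called it higher or lower and in grey where it did not, and black bars are list medians. The list medians run from -0.25 for the pigment cell genes to 0.39 for the mesenchymal genes.

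For each called gene the profile over the 6 arrays, centred on the mean of the gene, was set against those of all other genes tested by Euclidean distance in log2 units. The nearest profiles to that of Pax3 were those of Usp25 (distance 0.036), Mitf (0.040) and Ahnak (0.046). Nearest to Tfap2b were Cpa6 (0.055), Slc26a7 (0.092) and Maoa (0.10), with changes of -1.21, -1.22 and -1.21. Nearest to Tfap2a were Prex2 (0.031), Vps13d (0.037) and Abhd4 (0.037), and nearest to Tcf4 were Piga (0.032), Frmd6 (0.044) and Tmem43 (0.064). For Snai2 the nearest genes were further off, Arfgap2 at 0.14, Gpr21 at 0.15 and Mcee at 0.15. The untreated values of Snai2 had an SD of 0.25, against 0.012 for Pax3, and the part of this spread in its larger distances was not tested. These distances describe 6 arrays only.

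**Figure D5:**
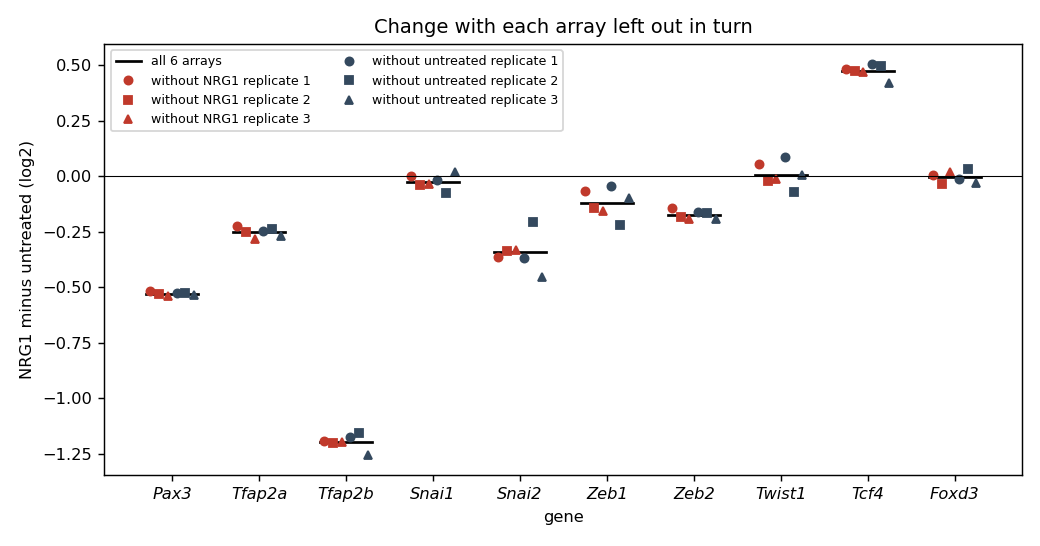
Change of each gene (vertical axis, NRG1 minus untreated, log2) in fits that left out a single array, with the value from all 6 arrays as a black line. Snai2 runs from -0.45 to -0.20, the widest spread of the 10, whereas Pax3 runs from -0.54 to -0.52.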

How the data were processed

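Total RNA (200 ng) of 6 samples was hybridised to Affymetrix Mouse Gene 1.0 ST arrays, per the labels. The deposited values are log2 levels per probe set, for which the submitters' processing notes name RMA and GCOS. RMA in its usual form corrects background, normalizes across arrays and summarises probes, which compresses differences near background. Its settings were not given in the sources used, and the scale follows from the values (2.34 to 14.6). An array has no read depth, and 3 arrays per group set the precision.

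Groups came from the sample titles, and 0 value columns lacked a sample. Of 35557 probe sets, 21789 had 1 gene in the platform annotation, 1621 had several and 12147 were unnamed here. Symbols were updated by Entrez number to RefSeq (GRCm38.p6), which matched 21698 probe sets, and the brightest probe set per symbol left 19938 genes.

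The whole table was fitted in R 4.3.3 with lmFit and eBayes of limma 3.58.1 (2 groups, 2-sided, Benjamini-Hochberg over all genes, threshold 0.05). The same fit was tried on simulated data with independent noise and few changed genes, which does not test the calls in these data. Differences between related genes had exact permutation tests. The genes named in a list are up to 3 called per direction by size, or the smallest p where none was called. Id1, Id4, Mitf, Sox10, Tfap2c, Tfap2d and Tfap2e fall outside this rule and were chosen after their values were seen. The same holds for the markers Pmp22, Cdh19 and Col1a1. The 10 genes and the lists were chosen with earlier results of these data known. The alternatives were 3 normalizations (quantile normalization of the tested genes alone was added after seeing the data), 2 filters on level, mean or all probe sets, array weights, a robust prior with an intensity trend, a replicate block, each array left out, and a 1.2-fold minimum change. Promoter sequences are from RefSeq.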

Additional observations from a re-analysis of the deposited data

How the results depend on the processing

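Over 17 alternative settings Pax3 and Tfap2b kept their calls and their direction, and Tcf4 kept its direction throughout. The 5 called genes of the 10 became 2 against a minimum change of 1.2-fold and 3 to 5 with each array left out, and all genes called became 1225 and 3116 to 4397, from 4168. The 37 called genes of the lists became 17 and 34 to 40. With array weights all genes called numbered 6088. After quantile normalization of the tested genes alone, a setting added after seeing the data, 6 of the 10 genes were called and 4653 in all. It called 3 rather than 1 of the AP-2 cofactors, and 1 rather than 2 of the family relatives. The count of family relatives was also 1 with quantile normalization of all probe sets and with centring on array medians. Differences close to 0 changed sign. Twist1 was at -0.0052 with centring on array medians, -0.090 with array weights and -0.069 to 0.085 with each array left out. Foxd3 was at 0.012 with array weights and -0.034 to 0.035 with each array left out, and Snai1 at -0.077 to 0.021. The change of Zeb1 minus that of Zeb2 was -0.053 to 0.12 with each array left out, that of Snai1 minus Snai2 0.13 to 0.48, that of Twist1 minus Snai2 0.14 to 0.46 and that of Tfap2a minus Tfap2b 0.92 to 0.99. The cause of these changes was not tested.

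With the replicate number as a block, 5 of the 10 genes, 35 of the listed genes and 3609 of all genes were called. Deviations of samples of the same number had correlations of -0.095, -0.16 and 0.074 across genes, and those of different numbers ran from -0.20 to 0.25. With 3 arrays per group these values depend on each other. They cannot tell whether samples of a number were handled together, which the titles do not say. Not every array correlated best with the array of its own number. Zeb1 lay below the level needed in the stricter filter and Twist1 likewise, so neither has a value there. The means of Zeb1 and Twist1 over all arrays, 6.58 and 6.91, lay below the median level of all genes (7.17). Whether low signal limits what can be seen for them was not tested.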
